A study of Mus musculus with 4 samples.

Results

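The genes described here are 7 nuclear receptors of the testis: the estrogen receptors Esr1 and Esr2, the glucocorticoid receptor Nr3c1, the mineralocorticoid receptor Nr3c2, the COUP transcription factors Nr2f1 and Nr2f2, and Nr0b1 (also known as Dax1). They were picked by symbol out of 30828 genes, and the choice was made on their levels across cell classes and on the comparison of the control with the Cnot3-cKO library, so that those levels and ratios are given as a description without a test. The cells assigned to either library held 175843312 UMIs (unique molecular identifiers, 1 for each captured transcript), and the 7 genes accounted for 64856 of them.

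Testis cells of mice at postnatal day 8 (P8) were sorted on CD9 and THY1 and profiled by droplet single-cell RNA-seq, which tags the 3′ ends of transcripts. The labels give 4 samples, 2 named wild-type (control here) and 2 named Cnot3 KO (Cnot3-cKO here), all given 4OHT (4-hydroxytamoxifen, the drug that activates creER and itself a ligand of estrogen receptors) from P1. The labels end these injections at P1 and P2 in the control samples and at P3 and P4 in the Cnot3-cKO samples, while the study's methods give P1 to P3 for neonatal mice, so a difference in dosing days, if the labels hold, cannot be told apart from genotype. According to the study's methods, the Cnot3-cKO animals were Cnot3flox/flox; Ddx4-creER and the controls Cnot3flox/flox without the transgene. Ddx4 is a germ cell gene, so deletion of Cnot3, a subunit of the CCR4-NOT complex that removes poly(A) tails from mRNA, was directed to germ cells. The deposited counts merge both samples of a genotype, so there was 1 library per genotype and no replicate spread, and every interval below is a 95% interval of counting error only. CreER proteins carry a mutated ligand-binding domain of an estrogen receptor, and in the counts, which give 1 sum per gene, reads from the transgene assigned to Esr1 and reads from Esr1 itself cannot be told apart.

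Nuclear receptors are transcription factors, most of which bind a lipid-soluble ligand. Esr1, Esr2, Nr3c1 and Nr3c2 bind steroid hormones and then regulate genes through hormone response elements. Nr2f1 and Nr2f2 have no established endogenous hormone and are known for roles in mesenchymal, vascular and Leydig lineage development, while Nr0b1 lacks a classical DNA-binding domain and acts mainly as a repressor of other receptors such as Nr5a1. In the testis, glucocorticoid and estrogen receptors are well known in the interstitial and peritubular cells, and Nr0b1 is known as an X-linked gene of Sertoli and steroidogenic cells.

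In the GRCm38 (mm10) annotation, the protein-coding genes Esr1 (chr10:4611593-5005614, + strand), Esr2 (chr12:76120419-76177259, - strand), Nr3c2 (chr8:76899442-77245012, + strand), Nr2f1 (chr13:78188973-78199757, - strand), Nr2f2 (chr7:70351944-70366735, - strand) and Nr0b1 (chrX:86191764-86195947, + strand) lie on separate chromosomes. The promoters of Nr2f2 and Nr0b1 are shown because these receptors were highest in different somatic classes: Nr2f2 was highest in the interstitial classes and lowest in Sertoli-like cells, and Nr0b1 was highest in Sertoli-like cells. Each sequence runs 5′ to 3′ on the gene's strand, from 250 bases before to 50 bases after the RefSeq start in GRCm38.p6, and capitals mark the letters AGGTCA, the core motif that many nuclear receptors bind. The window of Nr2f2 spans chr7:70366697-70366996 (- strand) and that of Nr0b1 spans chrX:86191525-86191824 (+ strand).
Nr2f2 promoter: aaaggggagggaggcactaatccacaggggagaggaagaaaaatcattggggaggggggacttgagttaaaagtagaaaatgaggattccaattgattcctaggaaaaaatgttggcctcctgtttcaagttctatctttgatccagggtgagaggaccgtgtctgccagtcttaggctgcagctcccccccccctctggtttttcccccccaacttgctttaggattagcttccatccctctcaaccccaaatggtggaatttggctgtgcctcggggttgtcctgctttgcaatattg
Nr0b1 promoter: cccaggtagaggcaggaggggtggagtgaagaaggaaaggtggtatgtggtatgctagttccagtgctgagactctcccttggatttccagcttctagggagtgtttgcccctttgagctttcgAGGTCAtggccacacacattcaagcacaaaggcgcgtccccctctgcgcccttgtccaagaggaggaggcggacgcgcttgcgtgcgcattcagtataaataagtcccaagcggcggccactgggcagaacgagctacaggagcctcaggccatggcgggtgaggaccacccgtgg
AGGTCA occurred 1 time in the Nr0b1 window, starting 126 bases before the start, and on neither strand in the Nr2f2 window. Searched on both strands, the same letters were present in 5340 of 32851 RefSeq promoter windows (16.3%), so this match is a description of the letters and not of a binding site.

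The control library held 181550221 UMIs and the Cnot3-cKO library 168770743. After the study's filters 5615 and 6034 cells were kept, with 7 barcodes in common between the libraries. Clusters built without the 7 genes gave 6 named classes, each checked against its markers, and no marker was at 0 in its own class. In control and Cnot3-cKO they held 241 and 71 germ-like, 1400 and 1725 Sertoli-like, 1572 and 1791 peritubular myoid-like, 2100 and 2103 stroma-like, 50 and 61 macrophage-like, and 33 and 37 endothelial-like cells. Many germ-like barcodes exceeded the upper bounds on UMIs, and a wider set with looser filters held 1334 and 561 germ-like cells, which is the set used for germ stages. Levels are given as CPM, the UMIs of a gene scaled to 1000000 UMIs of its class. In germ-like cells Cnot3 itself was 69.4 CPM in the control and 38.9 CPM in the Cnot3-cKO library, and 71.1 and 39.4 CPM in the wider set. Its levels in the other classes were alike, with 64.5 and 67.2 CPM in Sertoli-like and 45 and 44.6 CPM in stroma-like cells.

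Esr1, which encodes estrogen receptor alpha, was a gene of the interstitial cells in both libraries, and in germ-like cells of the wider set it had the largest ratio between the libraries among pairs of gene and class with at least 100 UMIs. Stroma-like cells had 33.2 CPM in control and 34.6 CPM in Cnot3-cKO (984 and 970 UMIs). Peritubular myoid-like cells had 28.8 and 33.8 CPM (710 and 857 UMIs). Sertoli-like cells had 1.05 and 1.25 CPM, so that the stroma-like level was 31.8-fold higher in control (interval 20.9 to 50.9) and 27.6-fold higher in Cnot3-cKO (19.3 to 40.8). Macrophage-like cells held 1 and 2 Esr1 UMIs and endothelial-like cells 0 and 1. Empty barcodes, which sample the free RNA of the suspension, held Esr1 at 8.84 and 13 CPM.

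**Figure D1:**
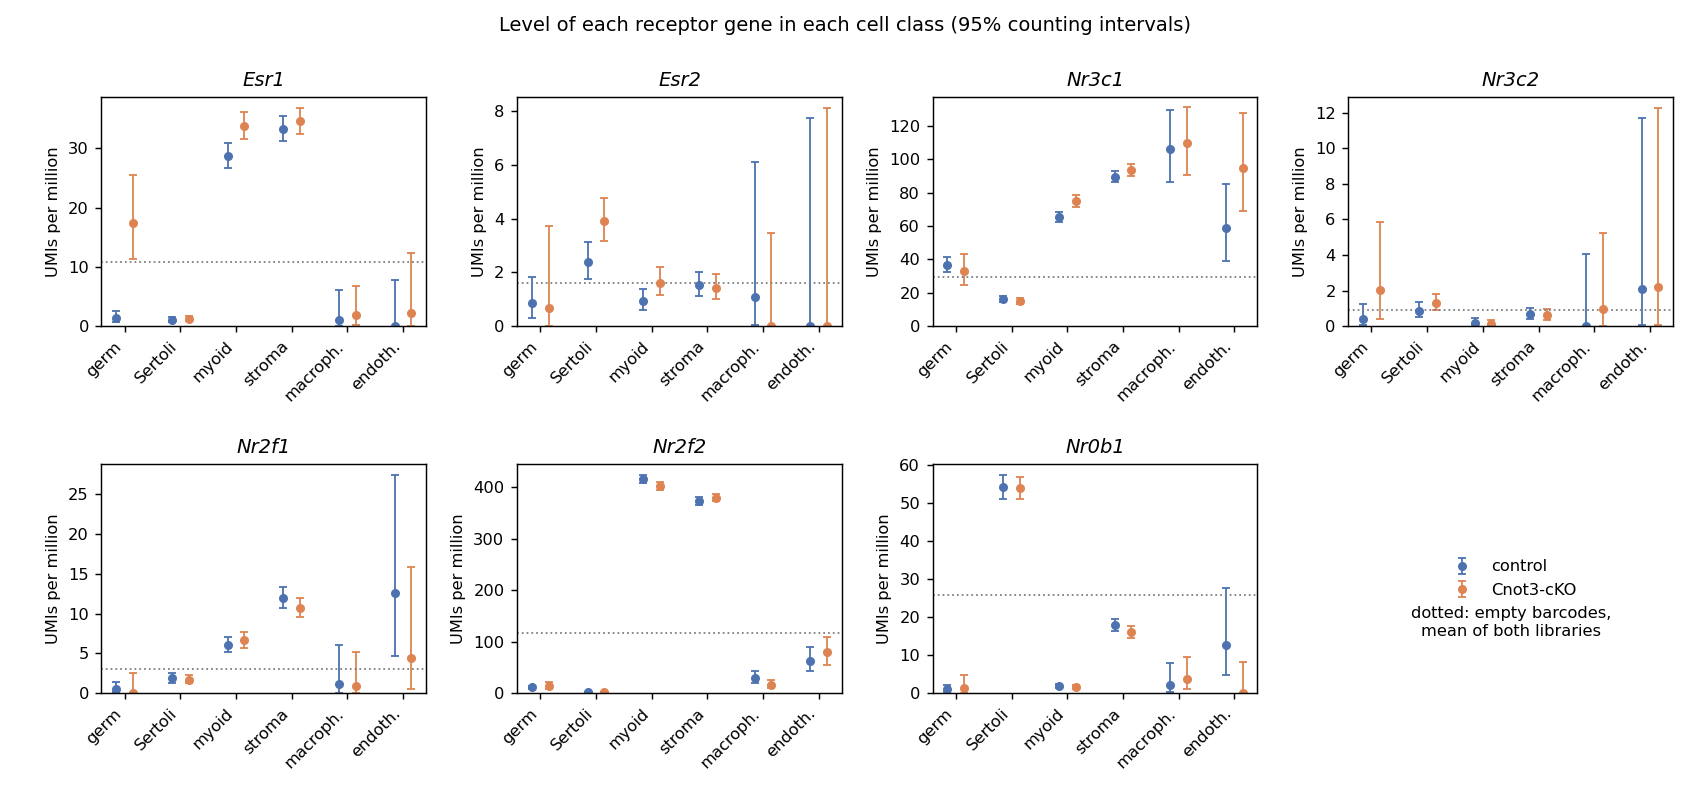
Level of each receptor gene (y axis, CPM of UMIs, linear from 0) in the 6 cell classes (x axis) of the control and the Cnot3-cKO library. Points are the level in 1 library, bars are 95% counting intervals, and the dotted line is the mean level in empty barcodes. Esr1 stood at 17.5 CPM in Cnot3-cKO germ-like cells against 1.41 in control, where transgene and gene reads cannot be told apart, and in both libraries Nr2f2 was highest in the interstitial classes and Nr0b1 in Sertoli-like cells.

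In germ-like cells passing the study's filters, Esr1 was 1.41 CPM in control (10 UMIs, interval 0.677 to 2.59) and 17.5 CPM in Cnot3-cKO (26 UMIs, 11.4 to 25.6). This was a log2 ratio of 3.63 (2.53 to 4.85, given here as Cnot3-cKO divided by control), on 36 UMIs in all, below the minimum of 100 UMIs set for calling a pair. The wider set gave more UMIs. There Esr1 was 3.42 CPM in control (194 UMIs, 2.96 to 3.94) and 16.4 CPM in Cnot3-cKO (427 UMIs, 14.9 to 18.1), a 4.81-fold difference (4.05 to 5.73). Esr1 UMIs were found in 155 of 1334 cells in the control library and in 282 of 561 in the mutant library, with at most 4 and 6 in a cell. With each cell thinned to 10000 UMIs, 36 of 1309 control cells had an Esr1 UMI (2.75%, interval 1.93 to 3.79), as did 77 of 551 Cnot3-cKO cells (14%, 11.2 to 17.2), with 25 and 10 shallower cells left out. The library intervals did not overlap in either measure.

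The contrast was present at each germ stage. Stem-like cells (375 control and 334 Cnot3-cKO cells) had 3.45 and 18.3 CPM of Esr1 (52 and 287 UMIs), a log2 ratio of 2.41 (1.98 to 2.86). Of the Cnot3-cKO stem-like cells, 271 belonged to a cluster led by Nefm, Capg, Id4 and Tagln2 that held only 2 control cells, and Esr1 was 18.6 CPM there. The stem-like cluster that both libraries shared, led by Tcl1, Sfrp2, Lhx1 and Ret, gave 3.46 CPM in 373 control cells and 16.5 CPM in 63 Cnot3-cKO cells (52 and 45 UMIs, log2 ratio 2.26, 1.65 to 2.86). Among the stages, progenitor-like cells had the highest level in both libraries, 5.49 and 33.4 CPM, although only 9 Cnot3-cKO cells were of this kind (54 and 18 UMIs, 2.60, 1.75 to 3.40). The intervals of these levels (4.12 to 7.16 and 19.8 to 52.7) overlapped those of stem-like cells in both libraries (2.57 to 4.52 and 16.2 to 20.5). Differentiating-like cells had 0.604 and 10.1 CPM (10 and 23 UMIs, 4.06, 2.93 to 5.29). A germ cluster led by Esx1, Prss50 and Ly6k held no Esr1 UMI in 152 control cells and 8 UMIs in 67 Cnot3-cKO cells (3.10 CPM, 1.34 to 6.10), where the control interval ended at 0.722 CPM.

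Of 8 germ clusters, 7 had at least 5 cells in both libraries. Esr1 was higher in Cnot3-cKO in 7 of these 7 with intervals that did not overlap, whereas Nr3c1 and Nr2f2 had overlapping intervals in each of them. Nr3c1 was higher in Cnot3-cKO in 3 of the 7 and Nr2f2 in 0, with log2 ratios of Nr2f2 from -1.27 to -0.03. The share of all genes with intervals apart in these clusters was not counted. Ddx4, whose promoter drives the transgene, was 273 CPM in control and 336 CPM in Cnot3-cKO over the wider germ-like set and 305 and 391 CPM in stem-like cells, with 408 CPM in the Cnot3-cKO cells of the Nefm cluster. It was 305 and 310 CPM in the shared stem-like cluster, 312 and 361 CPM in progenitor-like, 287 and 281 CPM in differentiating-like cells, and 202 and 190 CPM in the Esx1 cluster, where Esr1 was lowest. In the other 5 named classes Ddx4 was at most 4.21 CPM. The part of the transgene in the germ-like Esr1 counts was not tested.

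Other cells could add Esr1 to germ-like barcodes, and their markers were read beside it. The summed level of the 11 Sertoli markers was 293 CPM in control and 351 CPM in Cnot3-cKO stem-like cells, that of the stroma markers 176 and 178 CPM and that of the myoid markers 31.4 and 35.5 CPM. Free RNA estimated from the Sertoli markers would give 1.09 and 1.33 CPM of Esr1 over the wider germ-like set. Germ clusters whose leading genes were also those of stroma or Sertoli cells held most of the doublet calls, and Esr1 in them was 10.5 and 21.1 CPM (stroma-led) and 3.64 and 16.1 CPM (Sertoli-led). Without these 2 clusters Esr1 was 2.49 CPM in 1119 control cells and 15.9 CPM in 464 Cnot3-cKO cells (116 and 336 UMIs, log2 ratio 2.68, 2.37 to 2.99), and free RNA would give 0.535 and 0.689 CPM. For each 100 Nr2f2 UMIs, stroma-like and myoid-like cells carried 6.91 to 9.13 Esr1 UMIs. Stem-like cells carried 121 in control and 563 in Cnot3-cKO, on only 43 and 51 Nr2f2 UMIs. Outside those 2 clusters Nr2f2 was 3.61 and 3.17 CPM, where free RNA would give 6.45 and 6.84 CPM. Among Cnot3-cKO germ-like cells outside those clusters, thinned to 10000 UMIs, Nr2f2 was present in 1 of 57 cells with an Esr1 UMI and in 20 of 403 without, with overlapping intervals (0.0444% to 9.39% and 3.06% to 7.56%), and in control in 3 of 25 and 39 of 1073. With those clusters kept, the control values were 10 of 36 and 122 of 1273. The part of other cells in the germ-like Esr1 counts was not tested.

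**Figure D2:**
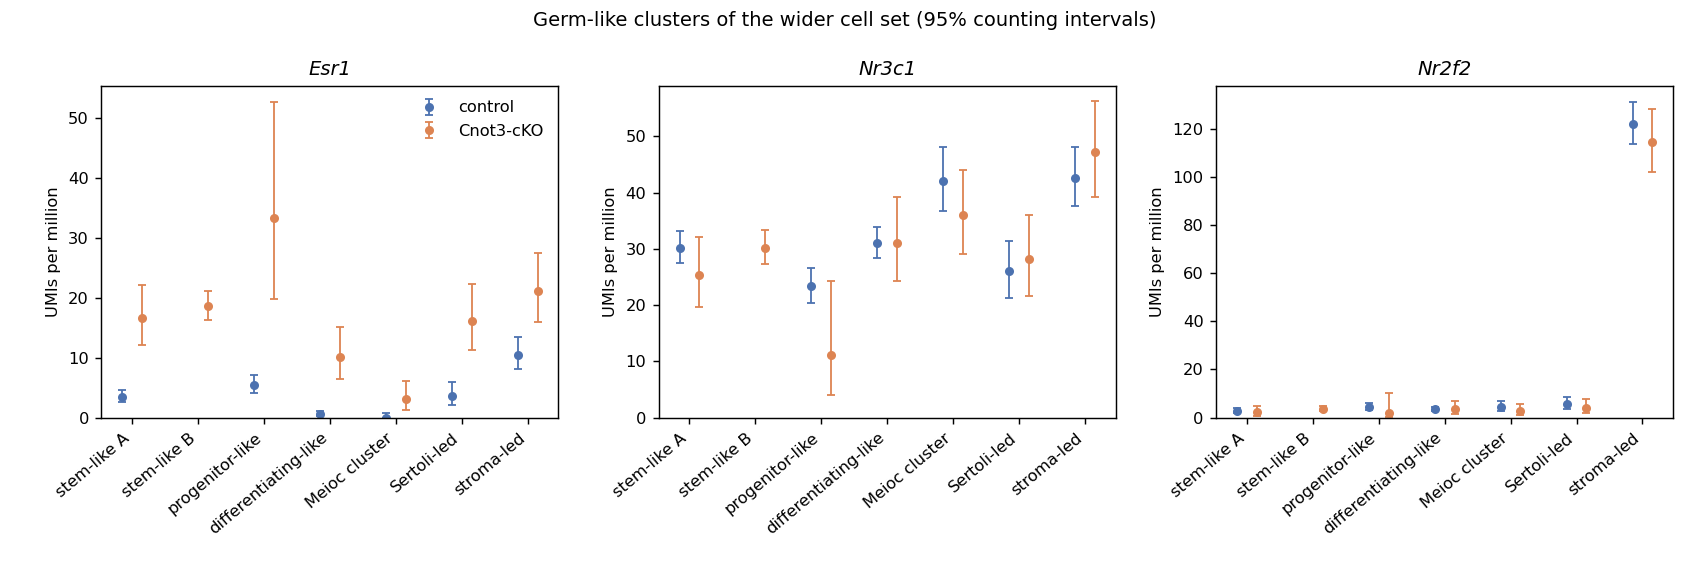
Levels (y axis, CPM of UMIs, linear from 0) of receptor genes for both libraries in clusters of germ-like cells from the wider set (x axis), with 95% counting intervals as bars. Esr1 was higher in Cnot3-cKO in each cluster with at least 5 cells per library, where transgene and gene reads cannot be told apart, and the intervals of Nr3c1 overlapped in each of them.

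Within the interstitial cells Esr1 varied by cluster. Stroma-like cells led by Oxtr and Foxl2 had 38.1 and 40.3 CPM, those led by Vcam1, Dlk1 and Prlr 35.7 and 35.8 CPM, and those led by Clec3b and Mfap5 22.6 and 19.4 CPM. The Oxtr cluster was 1.68-fold above the Clec3b cluster in control (1.42 to 2.0) and 2.08-fold above it in Cnot3-cKO (1.69 to 2.57). In myoid-like cells the log2 ratio between libraries was 0.23 (0.09 to 0.38), while in stroma-like cells it was 0.06 (-0.07 to 0.19). At a finer resolution, a myoid-like cluster led by Btg2 had 36.4 and 37.7 CPM and took 349 control and 1020 Cnot3-cKO cells, and a cluster led by Tnnt2 and Acta2 had 27.8 and 32.2 CPM and took 783 and 409 cells. The libraries thus filled these clusters unequally, and the part of this in the myoid-like ratio was not tested.

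Esr2, which encodes estrogen receptor beta, was low in every class. Its most frequent class was Sertoli-like cells, with 50 control UMIs and 97 Cnot3-cKO UMIs, or 2.38 CPM (1.76 to 3.13) and 3.92 CPM (3.18 to 4.79). The log2 ratio was 0.72 (0.22 to 1.25), past the 1.5-fold mark. In Sertoli-like cells 1 of the 3 genes of the group with at least 100 UMIs was past 1.5-fold, against 1.75% of 11073 genes in that class. Thinned to 5000 UMIs, 1.14% of control and 2.03% of Cnot3-cKO Sertoli-like cells had an Esr2 UMI, with intervals that overlapped (0.655 to 1.85 and 1.42 to 2.81), and at 10000 UMIs the shares were 2.89% and 3.37%. Levels in stroma-like cells were 1.52 and 1.43 CPM, in myoid-like cells 0.931 and 1.62 CPM and in germ-like cells 0.847 and 0.671 CPM, and no Esr2 UMI was seen in endothelial-like cells. The intervals of the libraries overlapped in each of these classes, and the log2 ratio in myoid-like cells was 0.80 (0.02 to 1.60) on 23 and 41 UMIs.

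Nr3c1, the glucocorticoid receptor, was the most widely spread of the 7 genes. Macrophage-like cells had 106 and 110 CPM (97 and 117 UMIs) and stroma-like cells 89.6 and 93.7 CPM (2654 and 2627 UMIs). Endothelial-like cells had 58.9 and 94.9 CPM on 28 and 43 UMIs, and myoid-like cells 65.3 and 74.9 CPM. Germ-like cells followed with 36.5 and 32.9 CPM, and Sertoli-like cells were lowest with 16.0 and 15 CPM. The macrophage-like and stroma-like levels did not differ beyond their intervals, nor did the endothelial-like and myoid-like levels. The stroma-like level was 5.61-fold the Sertoli-like level in control (5.01 to 6.30) and 6.26-fold in Cnot3-cKO (5.61 to 7.0). Thinned to 5000 UMIs, an Nr3c1 UMI was present in 36.7% and 37.4% of stroma-like, 44.0% and 42.6% of macrophage-like, and 7.43% and 7.48% of Sertoli-like cells.

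Between libraries, the log2 ratio of Nr3c1 was 0.06 in stroma-like cells (-0.01 to 0.14), 0.20 in myoid-like cells (0.10 to 0.29) and 0.01 in the wider germ-like set (-0.12 to 0.13). By germ stage it was 30.2 and 29.3 CPM in stem-like, 31.0 and 31.0 CPM in differentiating-like and 23.4 and 11.1 CPM in progenitor-like cells, the last on 6 UMIs from 9 cells in Cnot3-cKO, and the Esx1 cluster had 42.1 and 36.0 CPM. In control the progenitor-like interval (20.4 to 26.6) lay below that of stem-like cells (27.5 to 33.1). Stroma-like clusters spread more widely than the libraries did. Cells led by Clec3b and Mfap5 had 126 and 136 CPM against 64.1 and 69.5 CPM in cells led by Oxtr, a 1.96-fold difference in control (1.79 to 2.15) and also 1.96-fold in Cnot3-cKO (1.77 to 2.15). Esr1 ran in the opposite order over these 2 clusters. In single cells of the control Clec3b cluster, 8.01% of cells with an Nr3c1 UMI and 11.1% of cells without had an Esr1 UMI, with overlapping intervals (5.15 to 11.8 and 7.88 to 15).

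Nr3c2, the mineralocorticoid receptor, was close to undetected. All cells together held 110 of its UMIs, and its level was at most 2.21 CPM in any named class. Sertoli-like cells had 0.856 CPM in control (18 UMIs, 0.507 to 1.35) and 1.29 CPM in Cnot3-cKO (32 UMIs, 0.886 to 1.83), and myoid-like cells 0.202 CPM (5 UMIs, 0.0657 to 0.473) and 0.118 CPM (3 UMIs, 0.0244 to 0.346), with intervals of the 2 classes that did not overlap in either library. In the wider germ-like set, stem-like cells held 1 UMI in control and 9 in Cnot3-cKO (log2 ratio 3.11, 0.26 to 8.57).

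Nr2f2 (COUP-TFII) was the highest of the group in UMIs, with 44866 in all cells, and marked the interstitial classes. Myoid-like cells had 416 CPM in control (10272 UMIs, 408 to 424) and 402 CPM in Cnot3-cKO (10202 UMIs, 395 to 410). Stroma-like cells had 373 and 379 CPM (11046 and 10630 UMIs). Thinned to 5000 UMIs, 84.7% and 82.5% of myoid-like and 80.7% and 79.5% of stroma-like cells had an Nr2f2 UMI. Sertoli-like cells had 2.23 and 1.98 CPM, while free RNA alone would give 2.24 and 2.35 CPM there, so that the stroma-like level was 167-fold (125 to 227) and 191-fold (145 to 259) higher. Endothelial-like cells had 63.2 and 79.4 CPM on 30 and 36 UMIs. Macrophage-like cells had 29.6 and 15.9 CPM, where free RNA would give 31.7 and 21.1 CPM. Germ-like cells outside the stroma-led cluster stayed low, with 2.85 and 3.25 CPM in stem-like cells. Of the stem-like Nr2f2 UMIs, 43 and 6 came from the shared cluster and 0 and 45 from the Nefm cluster, which held 2 control cells.

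The log2 ratio of Nr2f2 between libraries was -0.05 in myoid-like (-0.09 to -0.01, and 0.00 without 2 clusters, a cycling cluster led by Pclaf and the Tagln cluster described next) and 0.02 in stroma-like cells (-0.01 to 0.06). Its level in a small myoid-like cluster led by Ramp1, Tagln and Eln was 199 and 209 CPM, below the 414 and 412 CPM of the main myoid-like cluster, and that small cluster held 10 control and 94 Cnot3-cKO cells. In the stroma the Clec3b cluster had 428 and 446 CPM and the Oxtr cluster 339 and 347 CPM. A finer Oxtr-positive cluster led by Hsd3b1 and Gdpd2, which also listed Lhcgr among its leading genes, had 219 and 225 CPM. This finer cluster was left unnamed by its markers. Hsd3b1 is an enzyme of steroid synthesis and Lhcgr the luteinizing hormone receptor.

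Nr2f1 (COUP-TFI), the paralog of Nr2f2, was lower but shared its interstitial place. Stroma-like cells had 12 and 10.7 CPM (355 and 300 UMIs) and myoid-like cells 6.07 and 6.66 CPM (150 and 169 UMIs). The stroma-like level was 1.97-fold the myoid-like level in control (1.63 to 2.40) and 1.61-fold in Cnot3-cKO (1.33 to 1.95), whereas Nr2f2 was slightly higher in myoid-like cells, 1.12-fold (1.09 to 1.15) and 1.06-fold (1.03 to 1.09). Again the Clec3b cluster was highest in the stroma with 20.5 and 17.3 CPM, 2.83-fold (2.19 to 3.68) and 2.60-fold (1.93 to 3.51) above the Oxtr cluster. Endothelial-like cells held 6 and 2 Nr2f1 UMIs. An antisense gene, RP23-471B6.2 (chr13:78198017-78279391, + strand), overlaps Nr2f1 and had 5.84 and 5.10 CPM in stroma-like cells, so Nr2f1 counts are uncertain where strand was not kept apart. An unnamed cluster of 10 and 11 cells led by Rmst and Pax8 had 54.1 and 35 CPM of Nr2f1 on 9 and 6 UMIs.

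Nr0b1, the corepressor-like receptor, was highest in Sertoli-like cells. It was 54.1 CPM in control (1138 UMIs, 51.0 to 57.3) and 53.9 CPM in Cnot3-cKO (1331 UMIs, 51.0 to 56.8), a log2 ratio of -0.01 (-0.12 to 0.11). Stroma-like cells had 17.8 and 15.9 CPM (528 and 447 UMIs, -0.16, -0.35 to 0.02). Thinned to 5000 UMIs, 6.10% and 5.42% of them had an Nr0b1 UMI, with overlapping intervals. At 10000 UMIs the shares were 9.20% and 6.11% (7.92 to 10.6 and 5.02 to 7.36), with 252 and 418 shallower cells left out. Myoid-like cells had 1.90 and 1.54 CPM, below the 3.37 and 3.60 CPM that free RNA would give. Of these UMIs, 34 of 47 in control and 13 of 39 in Cnot3-cKO came from the cycling cluster led by Pclaf (6.09 and 3.88 CPM). The main myoid-like cluster had 0.766 CPM in both libraries. The Sertoli-like level was 28.4-fold (21.2 to 38.9) and 35-fold (25.5 to 49.5) the myoid-like level. An Nr0b1 UMI was present in 20.1% and 21.1% of Sertoli-like cells thinned to 5000 UMIs, and at 10000 UMIs the order turned, with a share 3.21 percentage points lower in Cnot3-cKO.

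Both Sertoli-like and stroma-like cells were uneven in Nr0b1. At the finer resolution, Sertoli-like cells led by Cidea and Fabp3 had 119 and 130 CPM, whereas those led by Hsd17b1 had 31.6 and 27.9 CPM, a 3.75-fold difference in control (3.22 to 4.39) and 4.65-fold in Cnot3-cKO (4.05 to 5.36). Cycling Sertoli-like cells led by Ube2c and Prc1 had 43.3 and 45.5 CPM. In the stroma, the Clec3b cluster had 51.1 and 59.0 CPM (411 and 337 UMIs), close to the Sertoli-like level, the Vcam1 cluster 9.71 and 9.01 CPM and the Oxtr cluster 2.72 and 2.12 CPM. The Clec3b level was 18.8-fold (13.4 to 27.2) and 27.8-fold (18.9 to 42.5) the Oxtr level. The Clec3b cluster held 612 control and 482 Cnot3-cKO cells, and its log2 ratio of Nr0b1 was 0.21 (-0.01 to 0.42). The part of these cell numbers in the stroma-like ratio was not tested. The 11 Sertoli markers summed to 821 and 879 CPM in stroma-like cells as a whole, and free RNA would give 4.48 and 4.48 CPM of Nr0b1 there. The unnamed Rmst and Pax8 cluster had 90.2 and 64.3 CPM of Nr0b1 on 15 and 11 UMIs.

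**Figure D3:**
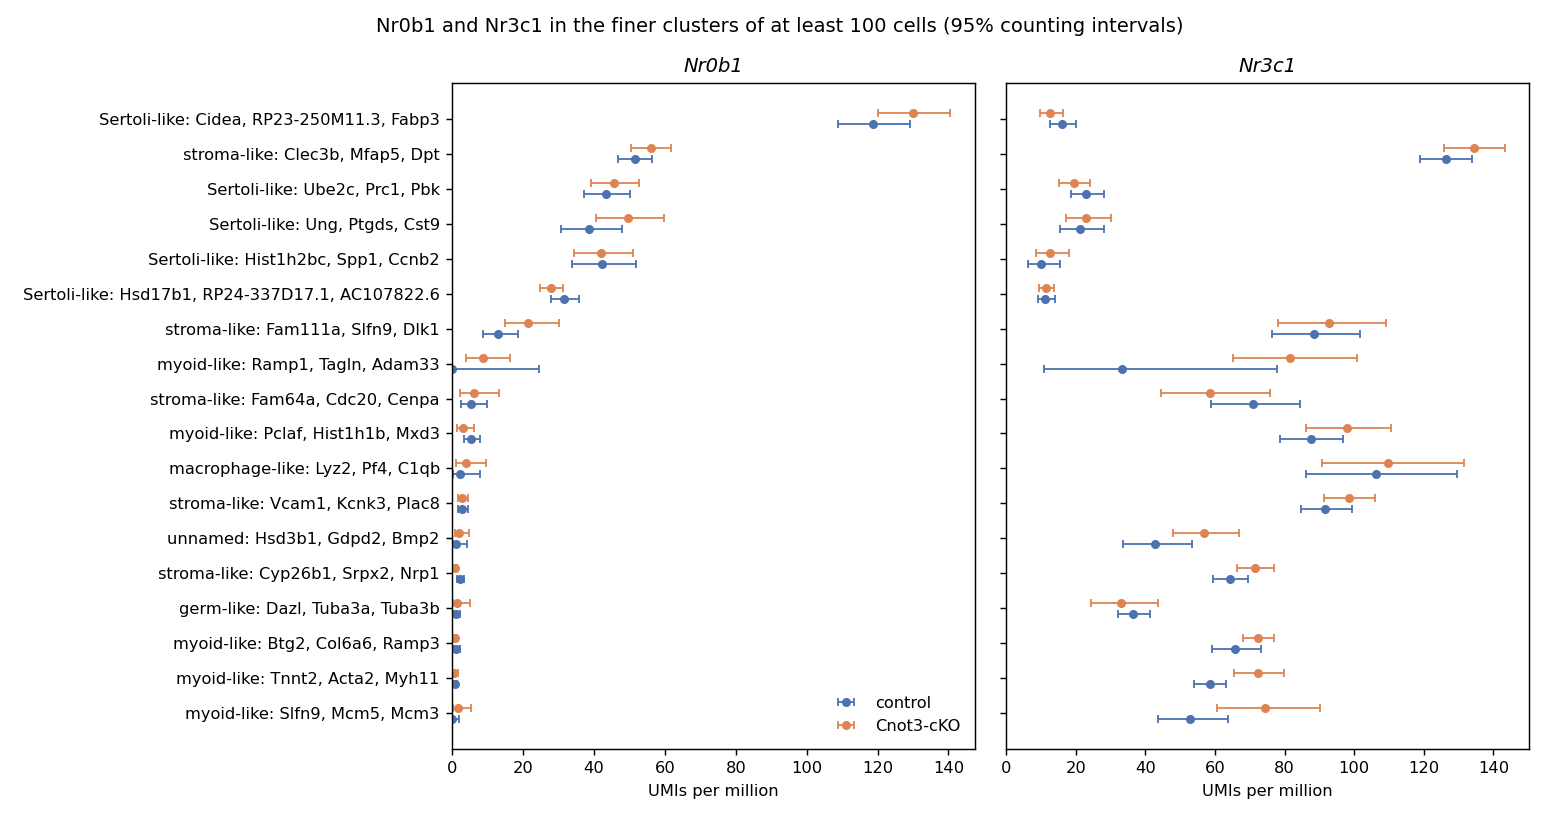
Levels (x axes, CPM of UMIs, linear from 0) of Nr0b1 and Nr3c1 in the finer clusters of at least 100 cells (y axis, named by class and leading genes) for both libraries, with 95% counting intervals as bars. Nr0b1 was highest in the Sertoli-like cluster led by Cidea and stood out in the stroma-like cluster led by Clec3b, which also had the highest Nr3c1.

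Among the 15 pairs of gene and class with at least 100 UMIs, 1 differed by more than 1.5-fold between libraries, Esr2 in Sertoli-like cells. The count was 0 of 2 genes in germ-like cells (10.4% of 8022 genes were past 1.5-fold there), 0 of 4 in myoid-like (3.84% of 11633), 0 of 5 in stroma-like (1.52% of 11757) and 0 of 1 in macrophage-like cells (12.1% of 2996). No gene of the group reached 100 UMIs in endothelial-like cells. In the wider germ-like set 2 of 4 genes were past 1.5-fold, Esr1 and Nr0b1, against 9.88% of 13300 genes. Nr0b1 there was 1.36 CPM in control and 2.89 CPM in Cnot3-cKO (77 and 75 UMIs, log2 ratio 1.09, 0.61 to 1.57). These levels were below the 2.54 and 3.18 CPM that free RNA would give. Free RNA cannot exceed the level itself, so this estimate is rough. Of the UMIs, 41 and 47 came from the Sertoli-led cluster.

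**Figure D4:**
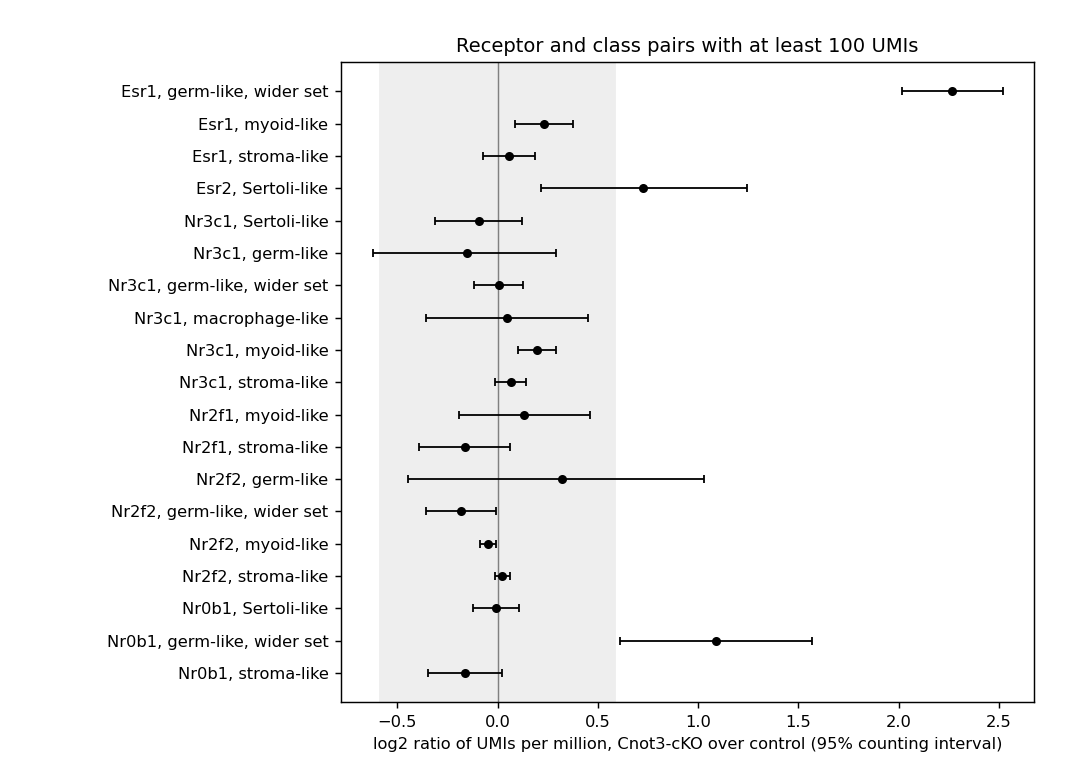
Log2 of the Cnot3-cKO level in CPM over the control level (x axis), for each pair of receptor gene and cell class with at least 100 UMIs (y axis), with 95% counting intervals as bars. Esr1 in the wider germ-like set lies farthest from 0 at 2.27, where transgene and gene reads cannot be told apart, and the pairs of the stroma-like class lie between -0.16 and 0.06.

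Other receptors and response genes were read from lists. Among 17 other nuclear receptors of the gonad, Nr4a1, an immediate early gene, was past the mark upward in germ-like, myoid-like and stroma-like cells, with 24.0 and 69.3 CPM in myoid-like and 12.6 and 29.8 CPM in stroma-like cells, and its relative Nr4a2 was past it upward in Sertoli-like and myoid-like cells. Nr1h2 was past it downward in germ-like cells, with 43.3 and 25.5 CPM. Of the 17, 9 were tested in germ-like cells, with 1 up and 1 down, against 10.4% of all genes in either direction. The counts were 1 up of 13 tested in Sertoli-like (1.75% of all genes), 2 up of 11 in myoid-like (3.84%) and 1 up of 11 in stroma-like cells (1.52%). In the wider germ-like set 15 of the 17 were measured at this depth, where 9.88% of all genes were past the mark. Nr5a2, Nr4a1 and Nr1h3 were higher in Cnot3-cKO, Nr5a2 with 5.09 and 9.86 CPM, and Nr2f6, a relative of the COUP factors, was lower with 78.9 and 52.4 CPM.

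Of 15 chaperones and coregulators of steroid receptors, 15 were tested in germ-like, Sertoli-like, myoid-like, stroma-like and wider germ-like cells. Of these 1 was past the mark in germ-like cells (Stip1, against 10.4% of all genes) and 0 in the others. In macrophage-like cells 1 of 10 tested was past it (Nrip1, against 12.1% of all genes), and in endothelial-like cells 0 of 5. Of 13 glucocorticoid response genes, 4 were past the mark upward in myoid-like cells (Dusp1, Cebpd, Zfp36 and Mt1). The share of all genes past it there in either direction was 3.84%. In stroma-like cells 2 were past it upward (Dusp1 and Zfp36), against 1.52%, and none was past it downward in these classes. Fkbp5, Tsc22d3, Per1, Klf9, Sgk1, Errfi1, Nfkbia, Ddit4 and Mt2, also tested, were past it in neither class. Nr4a1, from the list of other nuclear receptors, was also past it upward in both classes. The libraries filled the finer myoid-like clusters unequally, with Junb among the leading genes of the Btg2 cluster, and the part of this in these ratios was not tested. Whether the genes past the mark answered to Nr3c1 was not tested either. Zfp36, which encodes an RNA-binding protein that promotes mRNA decay, was 21.3 and 84.0 CPM in myoid-like and 14.9 and 65.6 CPM in stroma-like cells. Median log2 ratios of the 13 were -0.01 and 0.07 in these classes, beside -0.02 and -0.02 for all genes tested. In germ-like cells Ddit4 and Mt1 were past the mark upward and Dusp1 downward, of 9 tested (median 0.38, beside 0.02 for all genes, and 10.4% of them past the mark). In Sertoli-like cells Cebpd was past it upward, of 13 tested (median 0.22, beside 0.04, and 1.75% of all genes past the mark). In macrophage-like cells Dusp1 and Zfp36 were past it upward, of 6 tested (median 0.50, beside 0.05, and 12.1% of all genes past the mark). In endothelial-like cells Dusp1 and Nfkbia, the only 2 tested, were past it upward (median 1.01, beside -0.02), against 8.27% of 1560 genes. In the wider germ-like set Zfp36 and Mt1 were past it upward, of 13 tested (median 0.19, beside 0.02, and 9.88% of all genes past the mark). The metallothionein Mt1 had 742 and 1433 CPM there.

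Of 8 estrogen and progesterone response genes, 4 reached 100 UMIs in the wider germ-like set, where 1 was past the mark, Cxcl12, a chemokine, lower in Cnot3-cKO with 19.6 and 9.82 CPM. Greb1, a classical estrogen target, had 7.25 and 9.44 CPM there. The count past the mark was 0 of 2 tested in germ-like and 0 of 2 in Sertoli-like cells. It was 0 of 6 in myoid-like and 0 of 6 in stroma-like cells, 0 of 3 in endothelial-like cells and 1 of 2 in macrophage-like cells (Igfbp4). Of all genes, 9.88% were past the mark in wider germ-like and 12.1% in macrophage-like cells. Of 12 steroid making and inactivating enzymes, 5 were tested in stroma-like cells and 2 were past the mark, against 1.52% of all genes. Of these, Hsd3b1 was higher in Cnot3-cKO with 10.8 and 23.4 CPM. The finer cluster led by Hsd3b1 and Gdpd2 held 102 control and 154 Cnot3-cKO cells, and its part in this ratio was not tested. Hsd17b3 was past the mark in myoid-like cells with 1.38 and 3.90 CPM and in stroma-like cells with 1.79 and 3.28 CPM, beside 248 and 244 CPM in Sertoli-like cells. Hsd17b1 was past it in wider germ-like cells with 3.91 and 6.2 CPM, beside 161 and 217 CPM in Sertoli-like cells. These were 1 of 4 enzymes tested in myoid-like (3.84% of all genes) and 1 of 5 in wider germ-like cells (9.88%). Of 10 gonad transcription factors, Sox9 was higher in Cnot3-cKO myoid-like and stroma-like cells and Gata6 and Wt1 in myoid-like cells. These were 3 of 9 tested in myoid-like (3.84% of all genes) and 1 of 9 in stroma-like cells (1.52%). Sox9 and Wt1 are Sertoli genes, with 518 and 501 CPM and 366 and 318 CPM in Sertoli-like cells, and the Sertoli markers summed to 619 CPM in control and 705 CPM in Cnot3-cKO myoid-like cells, whose part in these 2 ratios was not tested.

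The genes whose levels ran most like each receptor were found over 25 points, each a cluster in a library with at least 20 cells, by Pearson's r of log2(CPM + 10) among 14373 genes. The points share libraries and free RNA, and r is given as a description. Nr2f2 was closest to Rcn3 (r = 0.99), Copz2, Rbms3, Hic1 and Hoxd9, genes high in both interstitial classes. Esr1 was closest to Dzip1 (r = 0.96), Ppp1r14a, Kcp, Arhgef25 and Rpl21, and Nr3c1 to Nucb1 (r = 0.93), Fcgrt, Nid2, Igfbp4 and Tgfbr2. For Nr0b1 they were Qpct (r = 0.97), Atp6v0e2, Oplah, Serpine2 and Lgals7, and for Nr2f1 they were Adamts1 (r = 0.90), RP23-162D3.2, Arhgap42, Klhl13 and Tns2. Esr2 was closest to Fras1 (r = 0.90), Arnt2, Fam110c, Bicd1 and Akap7, and Nr3c2, with its few UMIs, to Vat1 (r = 0.81), Exoc6b, Syf2, Tnip1 and Rfxank. Among the 7 receptors themselves, Nr2f2 was most like Esr1 (r = 0.88), then Nr2f1 (r = 0.77) and Nr3c1 (r = 0.73), and r was -0.32 with Nr0b1. With log2(CPM + 1) the order of Nr3c1 (r = 0.79) and Nr2f1 (r = 0.77) turned, and 24 of the 35 genes named here for the 7 receptors stayed among the closest 5.

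Joint detection was read within a class, in cells with and without a UMI of another receptor. In stroma-like cells thinned to 5000 UMIs, Nr3c1 was present in 37.2% of control cells with an Nr2f2 UMI and 34.8% without, and in 37.5% and 37.1% of Cnot3-cKO cells. Esr1 was present in 14.7% and 13.8% of control stroma-like cells with and without an Nr2f2 UMI. Nr0b1 was present in 10.9% of control stroma-like cells with an Nr2f1 UMI and 5.78% without, with overlapping intervals (6.11 to 17.7 and 4.79 to 6.90). In Cnot3-cKO the shares were 5.66% and 5.41%. Within the control Clec3b cluster they were 18.5% and 14.6%, also with overlapping intervals (9.92 to 30 and 11.8 to 17.9). With so few UMIs per cell, a difference of a few percentage points was not detectable.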

How the data were processed

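The values deposited by the authors are unnormalised UMI counts of each gene in each barcode, from Cell Ranger 3.0.1 on mm10 with Ensembl 93 genes (settings not given in the sources used here). Each of the 2 matrices merges 2 samples of a genotype, so groups came from the genotype labels with 1 library each. The sample titles start with NS or NOV, and the study's methods name NextSeq and NovaSeq systems without linking them to samples. Cells were called by the Cell Ranger order-of-magnitude rule with 3000 expected cells, then kept at up to 10% mitochondrial UMIs and within 2 SD of the mean UMIs and genes. The wider set allowed 20% and no upper bound. Both cell numbers are above those the study gives. Scrublet called 486 control and 459 Cnot3-cKO doublets, which were kept and left out as an alternative.

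Cells were clustered in scanpy 1.11.5 (2500 variable genes without the 7 members, 30 components, 15 neighbours, Leiden resolution 0.5, finer 1) and named from marker lists by a rule settled after the data were seen. A cluster of Sertoli and stroma markers (444 cells, 442 of them doublet calls) and 1 unnamed cluster were set apart. Members, lists and tests were chosen with earlier results of these data known. All 7 genes are named, others where they led a cluster, passed 1.5-fold in a list, or were the 5 most alike.

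UMIs were summed per class and divided by the class total. Intervals are exact Poisson for CPM, exact conditional binomial for ratios and Clopper-Pearson for shares (scipy 1.17.1), at 95%, and cover counting error only. Ratios were called past 1.5-fold in genes with at least 100 UMIs. With 1 library per genotype there was no test. Free RNA in a class was scaled from barcodes of at most 100 UMIs by the markers of 1 other class. These were stroma markers for Sertoli-like cells and Sertoli markers for the rest. For some genes the estimate exceeded the level itself, as for Nr0b1 in the wider germ-like set (187% of the control and 110% of the Cnot3-cKO level). It is therefore rough and can be too high. For shares, cells were thinned to 5000 or 10000 UMIs. Identifiers matched the GENCODE annotation in 99.8% without and 93.3% with version. Promoters came from RefSeq, where 6 members had an entry that could be used. The code was tested on simulated data. The list of other steroid hormone receptors is not reported here.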

Additional observations from a re-analysis of the deposited data

How the results depend on the processing

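No paired analysis was possible because each matrix merges the samples of a genotype, and for the same reason no sample could be left out in turn. Of 232 alternative values of ratios and share differences, 12 changed sign, 11 of them for values whose interval spans 0. The other was Nr2f2 in myoid-like cells, with a log2 ratio of -0.05 that was 0.00 without 2 myoid-like clusters. With free RNA subtracted, Nr3c1 and Nr2f2 in stroma-like cells had -0.04 and -0.08. The count of gene and class pairs past 1.5-fold, 1 of 15, was 2 without doublet calls and 2 as a mean of per-cell CPM. It was 6 of 27 with a minimum of 30 UMIs and 11 of 36 with none, where 4.19% to 19.9% and 15.5% to 37.1% of all genes in a class were past it. Esr1 in germ-like cells had a log2 ratio of 3.63 under the study's filters and 2.27 in the wider set. The latter was 2.66 with free RNA subtracted, 2.68 without the clusters led by stroma or Sertoli genes and 2.66 without doublet calls, the last 2 of these (and the 2 myoid-like clusters left out) being chosen after seeing the data. Nr2f2 in myoid-like over stroma-like cells, pooled over the libraries, had a log2 ratio of 0.12, which was 0.039 at the finer clustering and 0.079 with free RNA subtracted. Nr0b1 in Sertoli-like over stroma-like cells had 1.68, which was 1.85 with free RNA subtracted and 1.53 as a mean of per-cell CPM. The cause was not tested for these. Depth limits Esr2, Nr3c2 and Nr2f1 outside the interstitial classes, and macrophage-like and endothelial-like cells throughout.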
